A study of Homo sapiens with 12 samples.

Results

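The genes described are those that mark the granulocyte and monocyte branch of blood formation: the transcription factors SPI1, CEBPA and CEBPB, the granule proteins MPO, ELANE, AZU1 and LYZ, and the surface proteins CD14, CD33 and ITGAM. They were measured in HEL, a human erythroleukaemia cell line that the labels call an AML line and that is homozygous for JAK2V617F, the activating mutation of the JAK2 kinase found in myeloproliferative neoplasms. All cells were transduced with lentivirus in a pLKO-puromycin vector and carried the hairpin Jak2-9 or Jak2-10 against JAK2, a luciferase hairpin (Luc), or a GFP control that the labels name as a hairpin in one place and as a vector in another. Each of these 4 groups had 3 arrays, so that 6 knockdown arrays stood against 6 control arrays of 1 cell line. Members were all probe sets (the array's sets of short probes for 1 transcript) that the platform annotation gives to 1 of the 10 genes alone. This rule found 10 probe sets of 8 genes among the 22406 probe sets tested. The other 2 genes, LYZ and CD33, were not analysed here: the annotation joins LYZ with a second gene on the same probe set, and lists CD33 for none.

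SPI1, also called PU.1, and the C/EBP proteins are the transcription factors that direct progenitors to the granulocyte and monocyte fates, and SPI1 and the erythroid factor GATA1 restrain each other. Promyelocytes fill the primary granules with MPO, ELANE and AZU1, whereas CD14 and ITGAM appear on maturing monocytes and neutrophils. JAK2 transmits the signals of the receptors for erythropoietin, thrombopoietin and GM-CSF, which act on both branches. HEL cells are known for erythroid and megakaryocytic features.

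The label and the knockdown were checked first. JAK2, the targeted kinase, lay between 9.37 and 10.08 on knockdown arrays and between 10.40 and 10.68 on control arrays at its brighter probe set (205842_s_at, log2 intensity), a log2 fold change of -0.67 ± 0.11 (SE; limma, adjusted p = 0.0026). It fell by 0.75 with Jak2-9 (adjusted p = 0.00569; -0.55 and 0.00927 without Jak2-9 replicate 1) and was at -0.58 with Jak2-10, just short of the threshold (adjusted p = 0.0556), which it passed under 7 of 21 alternatives. At its other probe set (205841_at) it lay between 7.11 and 8.40 on knockdown arrays and between 8.68 and 8.90 on control arrays, a log2 fold change of -0.73 (adjusted p = 0.032), a call lost in 12 of 21 alternatives. With Jak2-9 that probe set was at -0.84 (adjusted p = 0.0412, and -0.42 and 0.0185 without Jak2-9 replicate 1), lost in 11 of 20 alternatives. With Jak2-10 it was at -0.63 (adjusted p = 0.329) and passed under 3 of 20 alternatives. Its Jak2-10 arrays, at 8.19, 8.22 and 8.06, lay below every control array. The erythroid factors GATA1 (9.86 to 10.37 on knockdown and 9.66 to 10.00 on control arrays) and KLF1 (10.21 to 10.99 and 10.32 to 10.42) and the platelet integrin ITGA2B (10.18 to 10.90 and 10.38 to 10.70) were bright in both, and the T cell gene CD3E was dim (4.16 to 4.63 and 4.33 to 4.74). Not every lymphoid marker was dim: 5 of 12 exceeded plant and bacterial control probe sets on every array and 3 on none, and CD2, a T cell adhesion receptor named after its values were seen, lay between 8.87 and 9.10 on knockdown and between 8.79 and 9.06 on control arrays. Jak2-9 replicate 1 stood apart, with 592 probe sets differing more than 2-fold from its group's other arrays, against 0 to 36 for each of the other 11 arrays. It also gave the highest of the 12 values at 4 of the 4 member probe sets that exceeded control probe sets on every array. Calls that rest on Jak2-9 alone are therefore given with and without that array.

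As no detection calls were used, 24 control probe sets for plant and bacterial transcripts served as a guide to background. Their values lay between 3.94 and 5.05 on the log2 scale, with a median of 4.27; probes differ in how well they bind, so this is only a guide. Of the 10 member probe sets, 4 exceeded the brightest of these controls on every array: CEBPB, SPI1, CEBPA and the brighter ITGAM probe set. The probe sets of CD14 and ELANE, 1 of MPO and the dimmer of ITGAM exceeded it on no array, the other of MPO on 1 array and that of AZU1 on 2. In these HEL cells there was signal for the 3 lineage transcription factors and for 1 of the 2 ITGAM probe sets, and values in the range of the control probe sets for the 3 granule proteins and CD14.

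**Figure D1:**
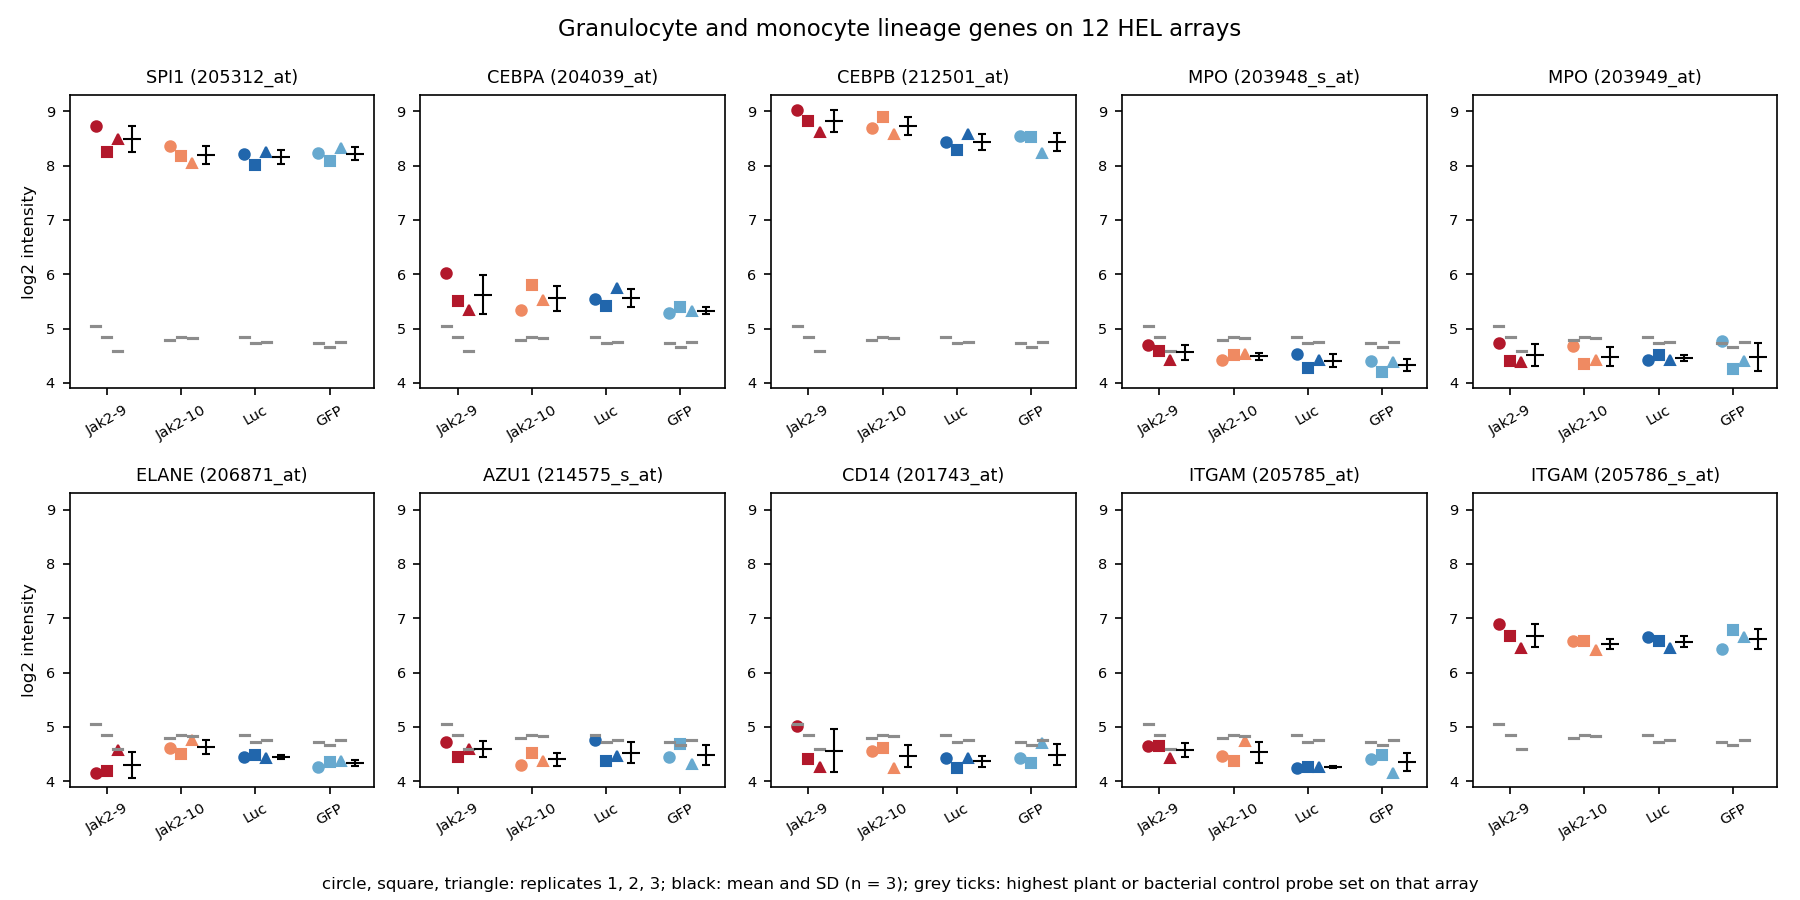
Log2 intensity of the 10 member probe sets in the Jak2-9, Jak2-10, Luc and GFP groups, with 1 point per array, black mean and SD bars (n = 3), and grey ticks at the brightest of 24 plant and bacterial control probe sets on the same array. SPI1, CEBPA, CEBPB and ITGAM 205786_s_at lie above the ticks on all 12 arrays, while ELANE, CD14, MPO 203948_s_at and ITGAM 205785_at exceed them on no array, MPO 203949_at on 1 and AZU1 on 2.

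None of the 10 member probe sets passed the threshold in any comparison (limma, Benjamini-Hochberg adjusted p under 0.05 over all 22406 probe sets). For knockdown against control, both hairpins against both controls, 0 of 10 passed against 3.14% of all probe sets, and 3 of 10 had an unadjusted p under 0.05, against 16% of all. Those 3 were CEBPB and, above the control probe sets on no array, MPO 203948_s_at and ITGAM 205785_at. For Jak2-9 against both controls 0 of 10 passed against 4.27% of all, with 4 at an unadjusted p under 0.05 against 22.2% of all. These 4 were CEBPB, SPI1 and the same MPO and ITGAM probe sets. For Jak2-10 it was 0 of 10 against 1.37%, with 3 at an unadjusted p under 0.05 against 7.10% of all. These 3 were CEBPB, ELANE and ITGAM 205785_at, of which only CEBPB exceeded the control probe sets on any array. Jak2-9 and Jak2-10 were compared with the same control arrays. Log2 fold changes for knockdown against control ran from -0.01 to 0.34 with a median of 0.115, and 9 of 10 lay above 0; over all probe sets the median was 0.03 and 60.4% lay above 0. The member count and median include the probe sets in the range of the control probe sets.

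CEBPB, which encodes the C/EBP factor of monocytes and of emergency granulocyte production, came closest. On the log2 scale it was 9.02, 8.83 and 8.61 on the Jak2-9 arrays, 8.70, 8.90 and 8.59 on the Jak2-10 arrays, 8.44, 8.28 and 8.58 on the Luc arrays and 8.54, 8.53 and 8.24 on the GFP arrays. All 6 knockdown arrays lay above all 6 control arrays, by 0.012 at the closest point, between Jak2-10 replicate 3 and Luc replicate 3. It was the only one of the 10 member probe sets without overlap, against 3.16% of all probe sets in either direction. Mean intensity was 441 ± 52.9 in knockdown cells and 347 ± 33.7 in control cells (SD, n = 6 each), and the fold change was 1.27 (95% interval 1.10 to 1.46), or 0.34 ± 0.09 (SE) on the log2 scale. The limma test over all probe sets gave an unadjusted p of 0.00256 and an adjusted p of 0.0696, short of the threshold. An exact two-sided permutation test of the 6 knockdown against the 6 control arrays gave p = 0.00216, the smallest that 924 arrangements can give; it was run for the brightest probe set of each of the 8 genes, without adjustment, and the other 7 had p between 0.188 and 0.92. Any probe set without overlap gets this smallest p, so it adds nothing to the lack of overlap. The shuffling took no account of which hairpin or control an array carried.

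CEBPB passed the threshold under 3 of 22 alternatives: with each array centred on its median (0.38, adjusted p = 0.0232), with array weights (0.30, adjusted p = 0.0320) and without Jak2-9 replicate 3 (0.40, adjusted p = 0.0299). The log2 fold change kept its sign in all 22, between 0.29 and 0.40, and the adjusted p lay between 0.0232 and 0.275. For each hairpin alone CEBPB was at 0.39 ± 0.11 (SE, adjusted p = 0.0722) with Jak2-9 and 0.30 ± 0.11 (adjusted p = 0.486) with Jak2-10. Without Jak2-9 replicate 1 the Jak2-9 value was 0.29 (adjusted p = 0.303). It passed for Jak2-9 with median centring (0.42, adjusted p = 0.0299) and without Jak2-9 replicate 3 (0.49, adjusted p = 0.0302). Jak2-10 minus Jak2-9 was -0.09 (95% interval -0.37 to 0.20), and Luc minus GFP was 0.00 (-0.29 to 0.28). By group mean the order was Jak2-9 (8.82 ± 0.21), Jak2-10 (8.73 ± 0.16), then Luc (8.43 ± 0.15) and GFP (8.43 ± 0.17, SD, n = 3 each). Neighbouring groups in that order overlapped except Jak2-10 and Luc, which were 0.012 apart.

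SPI1, the factor that both granulocytes and monocytes need to form, was 8.73, 8.26 and 8.49 on the Jak2-9 arrays, 8.37, 8.17 and 8.05 on the Jak2-10 arrays, 8.22, 8.02 and 8.25 on the Luc arrays and 8.23, 8.09 and 8.33 on the GFP arrays. The Jak2-9 arrays reached highest and lay just above all Luc arrays (8.26 against 8.25 at the closest), while all other pairs of groups overlapped. The difference of knockdown from control was 0.16 ± 0.09 (SE, 95% interval -0.04 to 0.35, limma adjusted p = 0.422). With Jak2-9 alone it was 0.31 (0.07 to 0.55, adjusted p = 0.133), which became 0.19 (adjusted p = 0.523) without Jak2-9 replicate 1 and passed without replicate 2 (0.42, adjusted p = 0.0496), the only passing value among 21 alternatives. With Jak2-10 alone it was 0.01 (-0.23 to 0.25). Jak2-10 minus Jak2-9 was -0.30 (-0.57 to -0.02), at an unadjusted p of 0.0385 and an adjusted p of 0.572.

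CEBPA, the factor needed for granulocyte formation, was 6.03, 5.51 and 5.34 with Jak2-9, 5.34, 5.80 and 5.53 with Jak2-10, 5.54, 5.41 and 5.75 with Luc and 5.28, 5.40 and 5.32 with GFP. These values stood above 50.2% of probe sets on average, and the lowest, 5.28, was little above the highest control probe set value of 5.05. Luc lay just above GFP (5.41 against 5.40 at the closest), and all other pairs of groups overlapped. The difference of knockdown from control was 0.14 ± 0.12 (SE, 95% interval -0.11 to 0.39, limma adjusted p = 0.587), and Luc minus GFP was larger, 0.23 (-0.12 to 0.59).

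The granule proteins gave values in the range of the control probe sets. MPO, the peroxidase that makes hypochlorous acid, lay between 4.42 and 4.69 on knockdown arrays and between 4.20 and 4.53 on control arrays at 203948_s_at. At 203949_at it lay between 4.35 and 4.74 on knockdown arrays and between 4.26 and 4.77 on control arrays. ELANE, neutrophil elastase, was 4.15, 4.18 and 4.57 with Jak2-9, 4.62, 4.51 and 4.76 with Jak2-10, 4.44, 4.49 and 4.42 with Luc and 4.27, 4.36 and 4.37 with GFP. The Jak2-10 arrays were above all 6 control arrays and 2 of the 3 Jak2-9 arrays below all of them, but Jak2-10 minus Jak2-9 did not pass (limma, unadjusted p = 0.0131, adjusted p = 0.572). AZU1, azurocidin, an antimicrobial relative of elastase without protease activity, lay between 4.30 and 4.73 on knockdown arrays and between 4.32 and 4.75 on control arrays. Adjusted p-values for knockdown against control were 0.307 and 0.901 for MPO, 0.689 for ELANE and 0.968 for AZU1. Since both groups were within the range of the control probe sets, log2 differences of these probe sets, where plotted or given in ranges, are not read as fold changes.

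AZU1 was 1 of the genes with a promoter sequence at hand and is shown because C/EBP factors, of which HEL cells gave signal for CEBPB and CEBPA, are known regulators of primary granule genes. The 250 bases before its start site are printed 5′ to 3′ from RefSeq (GRCh38.p14, chr19:827587-827836, + strand). Capitals mark the match to the C/EBP motif TTGCNNAA, which was searched on both strands and was found here on the reverse strand, starting 111 bases before the start site.
AZU1: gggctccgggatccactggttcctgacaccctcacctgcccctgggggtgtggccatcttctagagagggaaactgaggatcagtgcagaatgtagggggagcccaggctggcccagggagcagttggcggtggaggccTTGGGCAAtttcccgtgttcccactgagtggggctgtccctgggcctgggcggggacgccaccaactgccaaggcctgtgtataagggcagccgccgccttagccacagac
The motif was present in 9.05% of the 35116 windows of the same length before annotated starts, counting every start of a gene. A match of letters is a description and not evidence of binding.

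The surface proteins differed by probe set. CD14, the lipopolysaccharide co-receptor of monocytes, was 5.01, 4.41 and 4.27 with Jak2-9, 4.55, 4.61 and 4.24 with Jak2-10, 4.42, 4.25 and 4.43 with Luc and 4.42, 4.34 and 4.70 with GFP. Its highest value was on Jak2-9 replicate 1, where the brightest control probe set also peaked, at 5.05. ITGAM, the alpha chain of the integrin Mac-1 that phagocytes use for adhesion and complement binding, had 1 bright and 1 dim probe set. At the bright one (205786_s_at) it was 6.89, 6.68 and 6.46 with Jak2-9, 6.58, 6.58 and 6.41 with Jak2-10, 6.66, 6.58 and 6.46 with Luc and 6.43, 6.79 and 6.65 with GFP. Knockdown and control overlapped throughout and differed by 0.01 ± 0.09 (SE, 95% interval -0.19 to 0.20, limma adjusted p = 0.985).

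The dim ITGAM probe set (205785_at) gave a different picture. It was 4.65, 4.64 and 4.43 with Jak2-9, 4.47, 4.38 and 4.74 with Jak2-10, 4.24, 4.27 and 4.26 with Luc and 4.41, 4.48 and 4.16 with GFP. All 6 knockdown values lay above the control mean of 4.30, at an unadjusted p of 0.00928 and an adjusted p of 0.152 (limma), but no value exceeded the brightest control probe set on its array. CD14 had an adjusted p of 0.754.

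**Figure D2:**
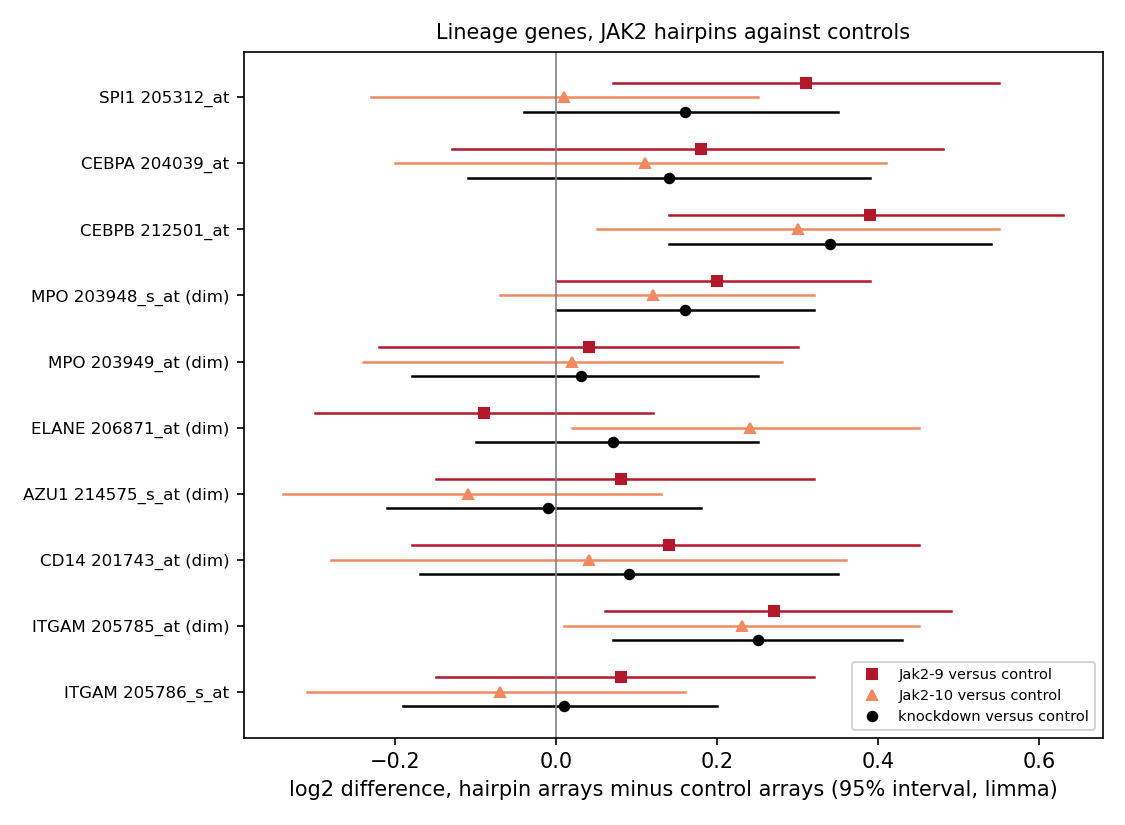
Log2 difference of each member probe set between hairpin and control arrays, for Jak2-9, for Jak2-10 and for both together, with 95% limma intervals; probe sets not above the control probe sets on all 12 arrays are marked dim. The CEBPB intervals lie above 0 in all 3 comparisons, from 0.05 at the lowest to 0.63 at the highest, and the bright ITGAM intervals span 0 in all 3. Intervals of the dim ITGAM probe set, which exceeded the control probe sets on no array, also lie above 0 in all 3, from 0.01 to 0.49.

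The sequence before the ITGAM start is shown because SPI1, bright on all arrays, is a known regulator of this gene in myeloid cells. Capitals mark GAGGAA, 1 form of the sites that SPI1 recognises, searched on both strands (RefSeq, GRCh38.p14, chr16:31259725-31259974, + strand). It was found once, starting 127 bases before the start site. Shorter or other forms were not searched or marked, and a match of letters is not evidence of binding.
ITGAM: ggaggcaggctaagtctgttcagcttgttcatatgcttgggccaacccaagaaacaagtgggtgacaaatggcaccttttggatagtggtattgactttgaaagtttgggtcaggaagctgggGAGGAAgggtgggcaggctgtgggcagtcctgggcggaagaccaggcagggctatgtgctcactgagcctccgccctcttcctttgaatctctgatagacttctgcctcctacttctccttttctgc
GAGGAA was present in 23.6% of all windows of this length. Windows ending at the gene's RefSeq start were at hand for 4 of the 8 genes: ITGAM, AZU1, CEBPA and CEBPB. None of the 4 held the STAT motif TTCNNNGAA, which 6.57% of all windows held, and those of CEBPA and CEBPB held none of the 3 motifs. The windows of CD14 and of a second CEBPB start end 526 and 247 bases from the gene's start, inside the gene, and are not counted here. The share over all windows does count such starts. The CD14 window held 1 STAT motif (TTCCAGGAA) and 1 GAGGAA, and the second CEBPB window held none of the 3 motifs.

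The hairpins were also compared with each other, and the controls with each other. For Luc against GFP 0 of 10 passed (limma), 0 had an unadjusted p under 0.05 (2.50% of all), and 0% of all probe sets passed; differences ran from -0.12 to 0.23. For Jak2-10 against Jak2-9 0 of 10 passed, 2 (SPI1 and ELANE) had an unadjusted p under 0.05 (8.56% of all), and 0% of all probe sets passed.

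Other genes of the same lineage were counted from 6 lists, each gene at its brightest probe set. Leaving out the 8 members, which these lists also hold, 82 genes were measured. In knockdown against control 1 of the 82 rose and 0 fell, or 1.22%, against 2.20% of all 11940 genes. The median log2 fold change was 0.05, against 0.04 over all genes, and 51 of the 82 lay above 0, or 62.2% against 63.5%. With Jak2-9 3 rose and 0 fell, against 3.74% of all genes, and with Jak2-10 0 passed, against 0.812%. Unadjusted p was under 0.05 for 11 of the 82 in knockdown against control (16.1% of all genes), for 22 with Jak2-9 (24.0% of all) and for 2 with Jak2-10 (5.71% of all). Of the 82 genes 38 exceeded the control probe sets on every array and 16 on none.

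The gene that rose was CST7, cystatin F, an inhibitor of lysosomal cysteine proteases in myeloid and cytotoxic cells. It was 6.60, 6.17 and 6.29 with Jak2-9, 6.05, 6.11 and 6.0 with Jak2-10, 5.78, 5.59 and 5.89 with Luc and 5.79, 5.76 and 5.61 with GFP. Every knockdown array lay above every control array. The fold change was 1.38 (log2 0.47 ± 0.08, SE, limma adjusted p = 0.00555), and it passed in all 22 alternatives (adjusted p between 0.00156 and 0.0363). It was 0.62 with Jak2-9 (adjusted p = 0.00345; 0.50 and 0.00968 without Jak2-9 replicate 1) and 0.32 with Jak2-10 (adjusted p = 0.309).

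With Jak2-9 alone TYROBP and PRG2 also passed. TYROBP, the signalling adaptor of activating receptors on monocytes and natural killer cells, was 9.05, 8.46 and 8.64 with Jak2-9, 8.52, 8.47 and 8.56 with Jak2-10, 8.31, 8.30 and 8.34 with Luc and 8.36, 8.23 and 8.23 with GFP. Here too all 6 knockdown arrays lay above all 6 control arrays, at 0.42 with Jak2-9 (limma adjusted p = 0.0467) and 0.32 for both hairpins (adjusted p = 0.0786). PRG2, the major basic protein of eosinophil granules, was 11.04, 10.64 and 10.60 with Jak2-9, 10.39, 10.49 and 10.35 with Jak2-10, 10.45, 10.36 and 10.45 with Luc and 10.39, 10.35 and 10.34 with GFP. All 3 Jak2-9 arrays lay above every control array, as did 1 of the 3 Jak2-10 arrays. PRG2 was at 0.37 with Jak2-9 (adjusted p = 0.0482) and 0.02 with Jak2-10 (adjusted p = 1). Without Jak2-9 replicate 1, TYROBP fell short at 0.25 (adjusted p = 0.185) and PRG2 at 0.23 (adjusted p = 0.204), and these calls were lost in 15 and 14 of 21 alternatives.

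**Figure D3:**
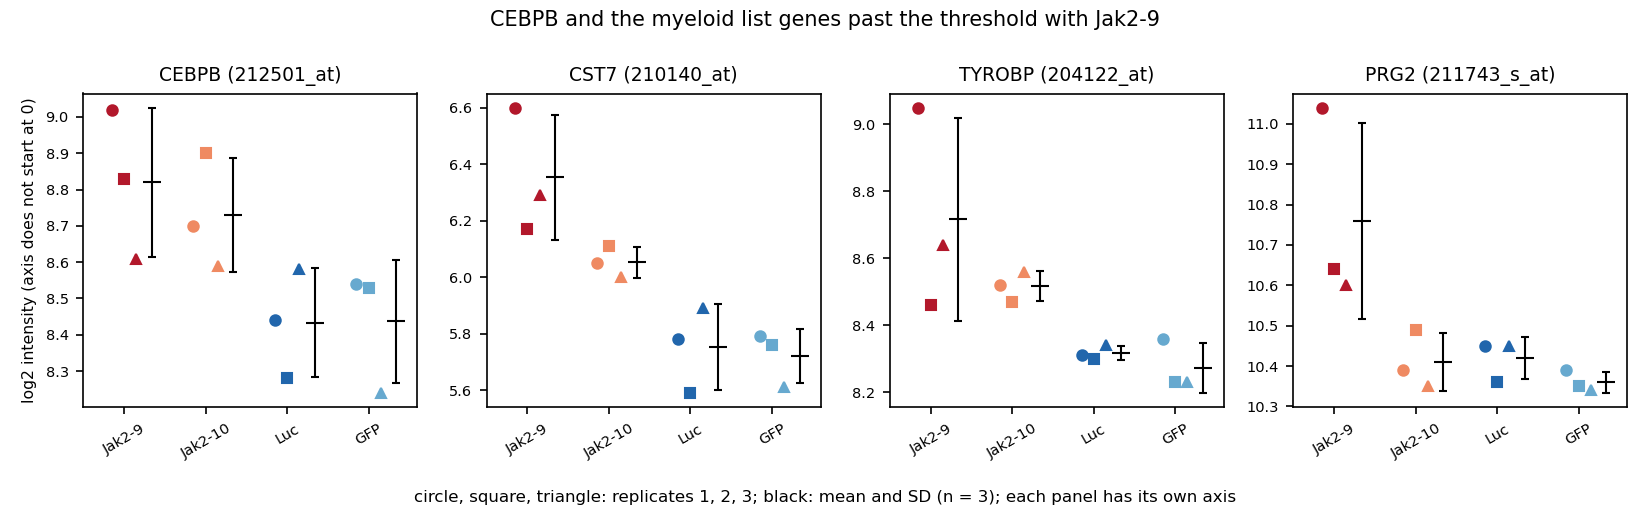
Log2 intensity of CEBPB, CST7, TYROBP and PRG2 in the 4 groups, 1 point per array with mean and SD (n = 3), each panel on its own axis. CEBPB, CST7 and TYROBP are higher on all 6 knockdown arrays than on all 6 control arrays, PRG2 on the Jak2-9 arrays, and Jak2-9 replicate 1 is the highest point in each panel.

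In knockdown against control 2.20% of all genes passed, and the median log2 fold change over all genes was 0.04. By list, members included, primary granule genes had 1 of 13 rise (CST7) with a median of 0.07 in this comparison. Unlike MPO, ELANE and AZU1, 5 of these 13 exceeded the control probe sets on every array, and 4 did on none. The 5 were CTSG, PRG2, CST7, SERPINB1 and SRGN. CTSG lay between 6.34 and 7.40 on knockdown arrays, highest on Jak2-9 replicate 1, and between 6.05 and 6.34 on control arrays. Its log2 fold change was 0.44 (limma adjusted p = 0.135). Secondary granule and neutrophil genes had 0 of 15 past the threshold and a median of 0.03; the lowest p was that of LTF, lactoferrin (0.34, limma adjusted p = 0.137). Monocyte and macrophage genes had 0 of 21 and a median of 0.07, with TYROBP as above. Myeloid surface receptors had 0 of 18 and a median of 0.05, with the integrin subunit ITGA4 at -0.30 (adjusted p = 0.165). Myeloid transcription factors had 0 of 18 and a median of 0.02, with CEBPB as above. Phagocyte oxidase genes had 0 of 5 and a median of 0.09, with the GTPase RAC2 at 0.18 (adjusted p = 0.205).

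**Figure D4:**
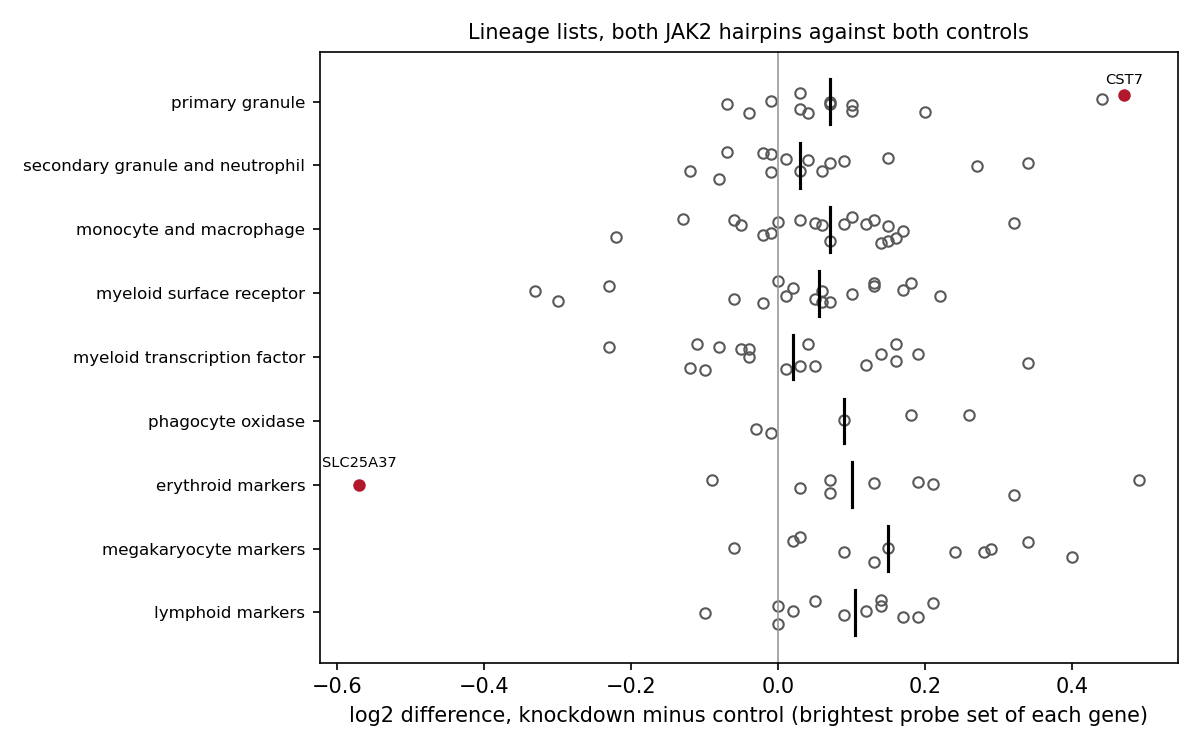
Log2 difference of knockdown minus control for each gene of 9 lists at its brightest probe set; filled red points passed (adjusted p under 0.05) and black bars are list medians. CST7 at 0.47 and SLC25A37 at -0.57 are the passing genes, and list medians lie between 0.02 and 0.15, against 0.04 over all genes.

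Markers of other lineages stand beside these values. Linear intensity summed over 10 erythroid genes ranged from 76700 to 82300 on knockdown arrays and from 73400 to 81200 on control arrays, and 10 of 10 exceeded the control probe sets on every array. Over 11 megakaryocyte genes it ranged from 5240 to 7880 on knockdown and from 5580 to 6380 on control arrays, with 9 of 11 above the control probe sets on every array. Over 12 lymphoid genes it ranged from 930 to 1150 on knockdown and from 850 to 1010 on control arrays, with 5 of 12 above. The 21 monocyte and macrophage genes summed to 19400 to 25900 on knockdown and 19600 to 21700 on control arrays. Of those genes, 9 of 21 exceeded the control probe sets on every array and 3 on none. Much of each monocyte and macrophage sum came from S100A4 and AIF1, whose mean intensities on control arrays were 10200 and 6200. Most of each erythroid sum came from HBG1, HBG2 and TFRC, at 26500, 27500 and 15900 on control arrays. Without Jak2-9 replicate 1 the highest knockdown sums were 6240 for megakaryocyte, 1010 for lymphoid and 23800 for monocyte and macrophage genes. The ranges overlapped in each case, and their part in the member results was not tested; in such bulk RNA, more cells of a type and more transcript per cell cannot be told apart. Erythroid markers had 1 of 10 fall, SLC25A37, the mitochondrial iron importer mitoferrin (-0.57, limma adjusted p = 0.000724). Megakaryocyte and lymphoid markers had 0 of 11 and 0 of 12 past the threshold, with medians of 0.15 and 0.10. Of all genes 2.20% passed in knockdown against control, and the median over all genes was 0.04. The lowest lymphoid p was that of NKG7, a granule protein of cytotoxic cells (0.21, limma adjusted p = 0.446).

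With Jak2-9 alone 3 markers of these lineages rose: 1 of 10 erythroid, 2 of 11 megakaryocyte and 0 of 12 lymphoid genes. Of all 11940 genes 250 rose and 196 fell with Jak2-9, or 3.74% together. The embryonic globin HBZ was at 0.62 (limma adjusted p = 0.0407), the platelet adhesion receptor SELP at 0.43 (adjusted p = 0.0161) and the tetraspanin CD9 at 0.42 (adjusted p = 0.0178). Without Jak2-9 replicate 1 none of the 3 passed, at 0.34, 0.37 and 0.40 (adjusted p = 0.097, 0.0611 and 0.0524). For both hairpins together the 3 fell short of the threshold at 0.49, 0.28 and 0.29 (limma adjusted p = 0.0584, 0.057 and 0.0514). HBZ was higher on every knockdown array than on every control array, by 0.213 at the closest point, while SELP and CD9 overlapped. SLC25A37 fell with Jak2-9 (-0.64, adjusted p = 0.00175; -0.54 and 0.00531 without Jak2-9 replicate 1) and with Jak2-10 (-0.49, adjusted p = 0.0202), where the call was lost in 7 of 21 alternatives.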

How the data were processed

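RNA from HEL cells was purified with Trizol, and 20 ng was amplified linearly and biotin labelled with a Nugen kit, per the labels' protocols. The authors deposited linear intensity for each probe set on every array, made by RMA according to the submitters' processing notes, which give no version. RMA as usually run quantile normalizes arrays. Median intensity lay between 44.9 and 49.1, and 12 arrays limit the precision.

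Log2 of the deposited intensity was taken with no pseudocount. Of 22930 probe sets, 524 controls were not tested. The platform annotation gave symbols (19415 probe sets with 1, 125 with several, 2866 unnamed), and all 10 member probe sets matched RefSeq by Entrez identifier. The 4 group means were fitted over 12 arrays (limma 3.58.1, R 4.3.3), adjusting over 22406 probe sets; counts per gene used the brightest of a gene's probe sets. Exact permutation tests (scipy 1.17.1) were left unadjusted, although an adjustment over the members had been planned. In simulated data for knockdown against control (22406 probe sets, 5 runs), log2 changes of 0.3, 0.5 and 1 were called for 23.3%, 73.4% and 98.5% of changed probe sets. Each run changed 200 probe sets and used independent normal noise, whereas 704 probe sets passed in the real comparison. The rates are therefore only a guide. Whether replicates came from separate cultures is not stated in the labels, and p-values reflect only the spread among these arrays, which may be technical.

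The members and lists were chosen with earlier results of these data known, and the 24 background control probe sets after the values were seen. Named genes were the members, JAK2 and 4 lineage markers. Per list, up to 3 passing genes with the largest change were named or, with none, the gene of lowest p in knockdown against control. Other genes were named after their values were seen. Same-numbered arrays of different groups deviated together (r over 0.1) in 4 of 18 pairs. Their median r was 0.0495, against -0.03 for arrays with different numbers. The numbers were not taken as pairs in the main fit, and a replicate block was run as an alternative.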

Additional observations from a re-analysis of the deposited data

How the results depend on the processing

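With 12 arrays and small differences, calls near the threshold depend on the settings, and dim probe sets (MPO, ELANE, AZU1, CD14 and ITGAM 205785_at) limit what can be measured. The count of member probe sets passing in knockdown against control was 0, and became 1 (CEBPB) with median centring and 1 with array weights. It lay between 0 and 1 when single arrays were left out, with 1 without Jak2-9 replicate 3. For Jak2-9 it was 0, became 1 with median centring, and lay between 0 and 1 without single arrays (1 without Jak2-9 replicate 2, SPI1, and 1 without replicate 3, CEBPB). The 9 lists had 2 genes past the threshold in knockdown against control, 7 with median centring, 11 with array weights and 4 with a pseudocount of 16, and between 2 and 7 without single arrays. With a replicate block the member counts stayed at 0 in all 5 comparisons and the list count was 3. The causes were not tested. Leaving out the dimmest 30% of probe sets gives no value for the members it drops.

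Signs turned for small differences, none of which passed. In knockdown against control, MPO 203949_at became -0.01 with array weights, AZU1 0.02 with median centring and 0.01 with GFP alone as control, and ITGAM 205786_s_at -0.02 with GFP alone. In Jak2-9 against control, array weights gave -0.07 for MPO 203949_at, 0.0 for AZU1 and -0.02 for CD14. In Jak2-10 against control, quantile normalization gave 0.0 for MPO 203949_at. In Jak2-10 against Jak2-9, array weights gave 0.07 for CEBPA, 0.01 for CEBPB, 0.12 for MPO 203949_at and 0.15 for CD14. In Luc against GFP, quantile normalization gave 0.01 for CEBPB.

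Leaving out single arrays turned the sign within these ranges. In knockdown against control they were -0.03 to 0.1 for MPO 203949_at, -0.05 to 0.05 for AZU1, -0.02 to 0.16 for CD14 and -0.05 to 0.06 for ITGAM 205786_s_at. In Jak2-9 against control they were -0.03 to 0.32 for CEBPA, -0.08 to 0.11 for MPO 203949_at, -0.09 to 0.28 for CD14 and -0.02 to 0.19 for ITGAM 205786_s_at, each at its lowest without Jak2-9 replicate 1. In Jak2-10 against control they were -0.07 to 0.08 for SPI1, -0.01 to 0.21 for CEBPA, -0.08 to 0.09 for MPO 203949_at, -0.03 to 0.16 for CD14, -0.02 to 0.05 for PRG2 and 0.0 to 0.33 for NKG7. In Jak2-10 against Jak2-9 they were -0.21 to 0.13 for CEBPA, -0.19 to 0.01 for CEBPB, -0.12 to 0.1 for MPO 203949_at, -0.24 to 0.13 for CD14 and -0.16 to 0.03 for ITGAM 205785_at. In Luc against GFP they were -0.11 to 0.02 for SPI1, -0.1 to 0.08 for CEBPB, -0.13 to 0.12 for MPO 203949_at, -0.07 to 0.14 for AZU1 and -0.16 to 0.02 for ITGAM 205786_s_at.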
